A study of Homo sapiens with 42 samples.

Results

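The proteasome is the large protease that degrades proteins tagged with ubiquitin, and 37 of its subunit genes were followed in MOLM-13 cells treated with quizartinib, everolimus or both, with or without medium conditioned by bone marrow stromal cells. The members were chosen by gene name: each of the 37 symbols matched 1 of the 57353 gene names in the count table, and all 37 were among the 12939 genes tested. They comprise 7 α subunits (PSMA1 to PSMA7), 7 constitutive β subunits (PSMB1 to PSMB7), the 3 immunoproteasome β subunits (PSMB8, PSMB9 and PSMB10), 6 ATPases (PSMC1 to PSMC6) and 11 non-ATPases (PSMD) of the regulatory particle, and the 3 PA28 activators (PSME1, PSME2 and PSME3).

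MOLM-13 is an established acute myeloid leukemia line with an internal tandem duplication in FLT3, a growth factor receptor kinase. The labels give its genotype as WT, and all 42 libraries come from this 1 line. Cells were kept for 12 h in RPMI or in hBMSC-CM, a mix in equal parts of RPMI and medium in which HS-5 cells, a stromal line from human bone marrow, had grown, with vehicle, with 3 nM of the FLT3 inhibitor quizartinib (AC220), or with 3 nM quizartinib plus 10 nM of the mTOR inhibitor everolimus, called the combo. A seventh condition was 10 nM everolimus alone in hBMSC-CM. Each of the 7 conditions had 3 replicates, and RNA-seq was run on input RNA and on RNA enriched in heavy polysomes. The study describes its replicates as biological, and they are called cultures here. Whether they were grown on separate days is not given in the sources used here.

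The α and β subunits form the 20S core, a barrel of stacked rings whose proteolytic sites are carried by PSMB5, PSMB6 and PSMB7. In cells exposed to interferon, and constitutively in many blood cells, these are replaced by PSMB8, PSMB9 and PSMB10, which changes the peptides made for presentation on HLA class I. The regulatory particle binds ubiquitinated proteins through its non-ATPase subunits and unfolds them with its ring of ATPases, whereas PA28 opens the core without ubiquitin. In leukemia cells the proteasome is best known as the target of bortezomib, which binds PSMB5, and most constitutive subunit genes respond together to the transcription factor NFE2L1.

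Total counts were 19.4 to 37.2 M in input and 21.5 to 38.8 M in polysome libraries. The leukemia markers FLT3, CD33, MPO, SPI1, HOXA9, MEIS1 and PTPRC were detected in every library at 6.17 CPM (counts scaled to 1 M per library) or more, and the stromal markers COL3A1, LUM and POSTN had 0 counts in all. The summed CPM of the 10 stromal markers was 2.46 to 46.5. The everolimus libraries stood apart in their replicates: over genes above 10 CPM, pairs of replicates differed by a median of 0.0757 to 0.0836 (absolute log2 difference) in input and 0.0841 to 0.138 in polysomes, against 0.160 to 0.412 and 0.176 to 0.568 in the other 6 conditions. Their counts still differed by more than sampling noise (chi-square per gene 4.92 to 18.3, against 29.5 to 302 elsewhere). Whether the everolimus replicates came from separate cultures cannot be told from these values. Same-numbered libraries of the other 6 conditions deviated together, with correlations of 0.28 to 0.66 in input, and the everolimus libraries did not (-0.06 to 0.00). Counts of calls that change when the replicate number is a block, or when the everolimus libraries are left out, are therefore given both ways.

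In input RNA of vehicle cultures in RPMI the members spanned a wide range of level, here CPM per kilobase of the canonical transcript (mean ± SD, n = 3). PSMB1 was highest at 311 ± 11.3, followed by PSMB4 at 279 ± 37.9, PSMB3 at 269.6 ± 43.6 and PSMA7 at 261 ± 42.9, and neighbours in this order did not differ beyond their spread. Among the catalytic subunits PSMB7 stood at 188 ± 8.67, PSMB6 at 167 ± 10.5 and PSMB5 at 99.1 ± 12.5. Of their immunoproteasome counterparts PSMB8 was at 155 ± 8.02, a level above that of PSMB5 by more than the spread, while PSMB10 (42.4 ± 2.72) and PSMB9 (38.8 ± 1.17) were lower. The ATPases ran from PSMC3 at 217 ± 35.6 to PSMC6 at 18.8 ± 2.78, and the non-ATPases from PSMD4 at 194 ± 37.2 to PSMD12 at 19.5 ± 0.614.

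The 3 lowest members, PSMA1 (13.1 ± 2.06), PSMA6 (6.71 ± 1.05) and PSMA2 (3.42 ± 0.235), share a strand with another annotated gene that covers 67.0%, 81.4% and 100% of their canonical transcript in GENCODE release 44. STAR, which made the counts, leaves out reads that fall on more than 1 gene, so the levels of these members are uncertain. PSMB10 shares 56.1% of its transcript in the same way, and PSMC1 and PSMD7 share 83.2% and 51.6% with a gene on the opposite strand, which matters if counting ignored strand, which is not stated. Pseudogenes named after a member number 13 for PSMC1, 6 for PSME2 and 4 for PSMA6. On GRCh38 the immunoproteasome genes PSMB8 (chr6:32840717-32844679, minus strand) and PSMB9 (chr6:32844136-32859851, plus strand) are neighbours in the HLA class II region, and PSME1 (chr14:24136163-24138967) and PSME2 (chr14:24143362-24147570) are neighbours on opposite strands.

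Quizartinib in RPMI lowered most of the constitutive and regulatory subunits, and no immunoproteasome subunit was called. In input RNA 24 of 37 members were called, all lower, where 34.6% of all genes were called in either direction and 18% were called lower (edgeR quasi-likelihood test, Benjamini-Hochberg adjusted p under 0.05). The median log2 change of the members was -0.69 and that of all genes 0.08. In 29 of 37 members all 3 quizartinib cultures lay below all 3 vehicle cultures, as in 27.2% of all genes. The summed level of the 37 members was 5432, 5544 and 5754 CPM in the vehicle cultures and 3517, 3308 and 3307 CPM under quizartinib. In bulk RNA, fewer cells of a kind and less RNA per cell cannot be told apart, and CPM are shares of a library and not amounts per cell. With the replicate block and without the everolimus libraries 28 members were called, again all lower, beside 54.6% of all genes, with PSMB2, PSMB8, PSMC2 and PSMD6 added. Leaving out the everolimus libraries without a block gave 20, as PSMA4, PSMB6, PSMB7 and PSMC5 lost their calls (adjusted p = 0.0977, 0.056, 0.0572 and 0.0692). The summed stromal markers also moved with quizartinib, from 2.50 to 6.80 CPM to 13.7 to 46.5 CPM in input in RPMI and from 2.46 to 7.14 to 11.6 to 30.1 CPM in hBMSC-CM, with COL1A1 reaching 38.8 CPM, and their part in the result was not tested.

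Of the α ring, 4 of 7 were called lower. PSMA3, a ring subunit, had 169.7, 170.3 and 173 CPM in the vehicle cultures and 77.9, 71.996 and 79.0 CPM under quizartinib, with no overlap between the groups (log2 change -1.16 ± 0.31, adjusted p = 0.00302). PSMA7, PSMA5 and PSMA4 were the others called, at -1.0, -0.66 and -0.59. The 3 not called, PSMA1, PSMA2 and PSMA6 (between -0.72 and -0.18), are those whose transcripts are overlapped by another gene.

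Of the constitutive β ring, 5 of 7 were called lower, among them the 3 catalytic subunits. PSMB5, the chymotrypsin-like site and bortezomib target, had 95.7, 118 and 96.1 CPM with vehicle and 53.7, 49.7 and 48.6 CPM with quizartinib (-1.03 ± 0.26, adjusted p = 0.00195), a 2.04-fold fall. PSMB6, the caspase-like site, had 136, 130.2 and 147 CPM and then 88.6, 83.7 and 88.8 CPM (-0.66 ± 0.21, adjusted p = 0.0133). PSMB7, the trypsin-like site, had 175, 191 and 189 CPM and then 131, 126 and 125 CPM (-0.54 ± 0.17, adjusted p = 0.011). In none of these 3 genes did the quizartinib cultures overlap the vehicle cultures. The calls of PSMB6 and PSMB7 were lost without the filter on low counts and without the everolimus libraries (highest adjusted p = 0.0563 and 0.169). PSMB1 and PSMB3, structural members of the ring, were also called (-0.69 and -0.71), while PSMB2 (-0.74 ± 0.42) and PSMB4 (-0.28 ± 0.18) did not pass the test. PSMB2 passed with the replicate block (-0.65 ± 0.12, adjusted p = 1.47e-05).

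In the regulatory particle 4 of 6 ATPases and 9 of 11 non-ATPases were called lower. PSMC3, an ATPase of the unfolding ring, had 276, 342 and 385 CPM with vehicle and 140.3, 145 and 150.5 CPM with quizartinib, and it carried the smallest p of all members (-1.20 ± 0.17, adjusted p = 7.2e-07). PSMC4 fell to a like extent (-1.04 ± 0.17, adjusted p = 6.13e-06), PSMC5 and PSMC1 fell by less (-0.80 and -0.63), and PSMC2 (-0.44 ± 0.23) and PSMC6 (-0.08 ± 0.26) did not pass, although PSMC2 did with the replicate block (-0.36 ± 0.13, adjusted p = 0.0234). PSMD12, a subunit of the lid, had 87.8, 84.7 and 82.5 CPM and then 37.7, 33.8 and 37.8 CPM (-1.22 ± 0.21, adjusted p = 1.86e-05). These ATPases sit in the base, which docks on the α ring. PSMD1, a scaffold of the base, had 131, 143 and 156 CPM and then 64.4, 67.7 and 53.7 CPM (-1.21 ± 0.29, adjusted p = 0.00129). PSMD14, the deubiquitinase that removes ubiquitin chains before degradation, had 102, 80.8 and 71.7 CPM and then 49.036, 40.9 and 27.8 CPM (-1.12 ± 0.32, adjusted p = 0.00593). PSMD11, a lid subunit, had 119, 98.5 and 97.0 CPM and then 53.7, 45.1 and 46.7 CPM (-1.11 ± 0.16, adjusted p = 1.32e-06). In PSMC3 and these 4 non-ATPases the quizartinib cultures all lay below the vehicle cultures. The 5 other non-ATPases that passed, PSMD2, PSMD3, PSMD7, PSMD8 and PSMD13, lay between -0.85 and -0.58. The ubiquitin receptor PSMD4 (-0.22 ± 0.20) and PSMD6 (-0.49 ± 0.22) did not pass, and PSMD6 passed with the block (-0.40 ± 0.13, adjusted p = 0.00672). Over all classes, leaving out single cultures kept 22 to 23 members called, and the calls lost were those of PSMC5 without quizartinib replicate 1 or 2 or vehicle replicate 3 (adjusted p = 0.0695, 0.0591 and 0.0542), PSMD13 without quizartinib replicate 1 (0.0509), PSMD2 without quizartinib replicate 3 or vehicle replicate 1 (0.0748 and 0.0537), PSMB3 without vehicle replicate 3 (0.0507) and PSMA4 without quizartinib replicate 2 or 3 or vehicle replicate 1 or 2 (0.0779, 0.0712, 0.0512 and 0.084).

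**Figure D1:**
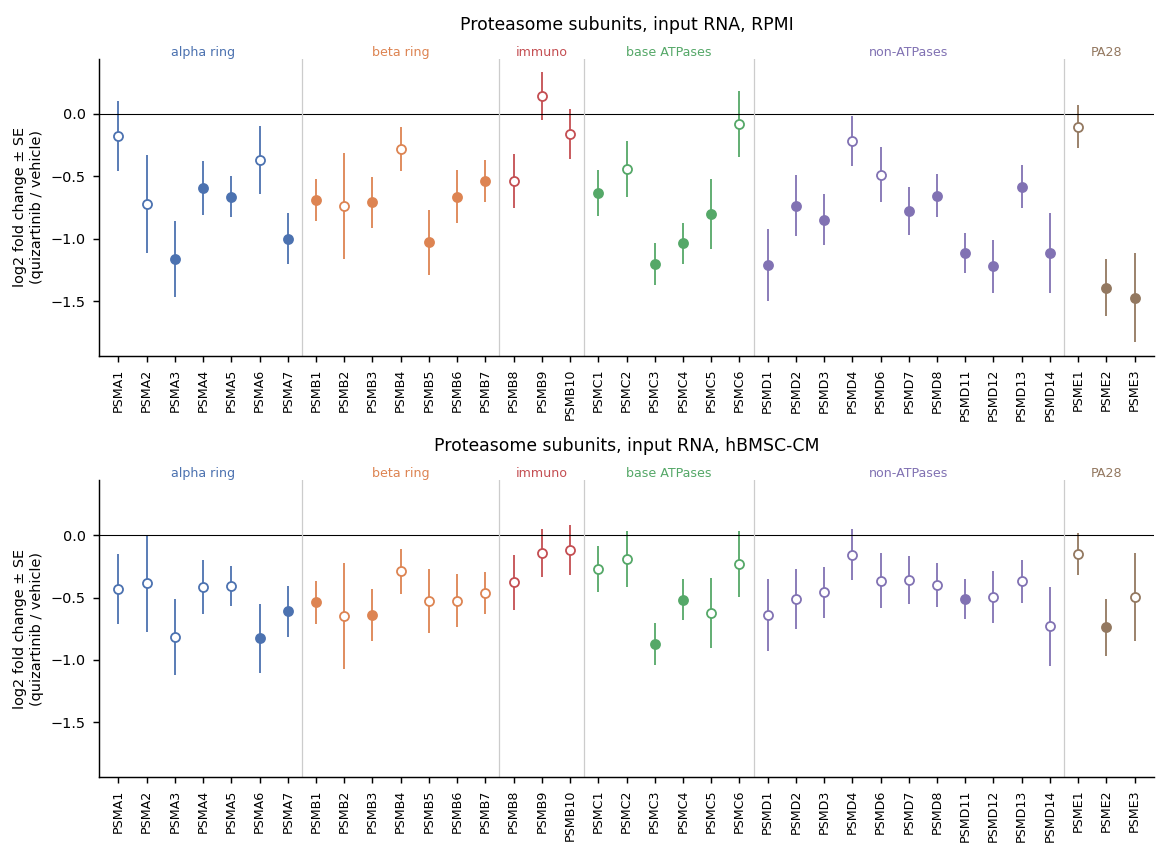
Log2 fold change ± SE of each of the 37 members in input RNA, quizartinib over vehicle, in RPMI (upper panel) and in hBMSC-CM (lower panel), by subunit class, filled where the adjusted p was under 0.05. In RPMI 24 points are filled and all lie below 0, and in hBMSC-CM 8 are filled, while the 3 immunoproteasome points are open in both.

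None of the 3 immunoproteasome subunits was called in RPMI. PSMB8 had 167, 184 and 173 CPM with vehicle and 126, 124 and 111 CPM with quizartinib, which just missed the threshold (-0.54 ± 0.22, adjusted p = 0.0537) and passed it with the replicate block (-0.46 ± 0.10, adjusted p = 0.000338). PSMB9 had 38.3, 39.2 and 40.7 CPM and then 41.3, 42.3 and 47.1 CPM, the only member with a positive estimate (0.14 ± 0.19, adjusted p = 0.595). PSMB10 had 40.2, 44.4 and 39.5 CPM and then 37.7, 38.8 and 34.9 CPM (-0.16 ± 0.20, adjusted p = 0.585). The groups did not overlap in any of the 3, with quizartinib below vehicle for PSMB8 and PSMB10 and above it for PSMB9.

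Set against the subunit it replaces, each immunoproteasome transcript had a higher ratio under quizartinib in RPMI. These ratios are of CPM and are not corrected for length, so only their changes are read, and no test was run on them. The log2 ratio of PSMB9 to PSMB6 was -1.83, -1.73 and -1.85 in the vehicle cultures in RPMI and -1.10, -0.98 and -0.91 under quizartinib. That of PSMB8 to PSMB5 was 0.80, 0.64 and 0.85 and then 1.23, 1.32 and 1.18, and that of PSMB10 to PSMB7 was -2.12, -2.11 and -2.25 and then -1.80, -1.70 and -1.84. None of the 3 ratios overlapped between vehicle and quizartinib. In hBMSC-CM the vehicle cultures already stood higher for PSMB9 over PSMB6 (-1.47, -1.32 and -1.28) and for PSMB8 over PSMB5 (1.15, 1.14 and 0.92), and the quizartinib cultures there (-1.17, -0.89 and -0.86, and 1.21, 1.27 and 1.16) averaged -0.97 ± 0.17 and 1.21 ± 0.06, against -1.0 ± 0.09 and 1.24 ± 0.07 (mean ± SD, n = 3) for quizartinib in RPMI. PSMB10 over PSMB7 was more scattered in hBMSC-CM (-2.28, -1.89 and -2.59 with vehicle and -1.82, -1.76 and -2.19 with quizartinib), and these groups overlapped. With everolimus alone PSMB9 over PSMB6 stood at -1.16, -1.18 and -1.33, and with the combo at -0.93, -0.81 and -0.61 in hBMSC-CM and -0.68, -0.78 and -0.79 in RPMI, so that the combo cultures in both media lay above all vehicle cultures.

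**Figure D2:**
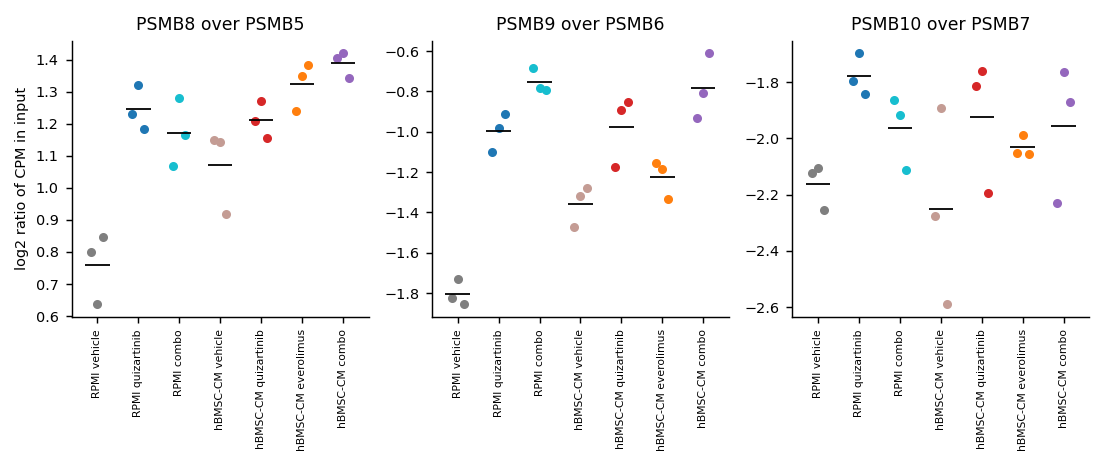
Log2 ratio of CPM in input for each immunoproteasome subunit over the constitutive subunit it replaces, with 1 point per culture and a bar at the mean of 3 cultures in each of the 7 conditions. The mean ratio of PSMB9 to PSMB6 rises from -1.80 in RPMI vehicle to -1.0 with quizartinib and -0.75 with the combo.

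The PA28 activators held both the largest falls and one of the smallest estimates. PSME3, the nuclear PA28γ, had 222, 193 and 167 CPM with vehicle in RPMI and 76.0, 73.4 and 60.1 CPM with quizartinib, the largest fall of all members (-1.47 ± 0.36, adjusted p = 0.00142, 2.78-fold). PSME2, the interferon-inducible PA28β, had 121, 153 and 169 CPM and then 48.2, 52.1 and 68.8 CPM (-1.39 ± 0.23, adjusted p = 1.01e-05, 2.62-fold). PSME1, its partner PA28α in the same ring, had 106, 131 and 146 CPM and then 117, 114 and 126 CPM, groups that overlapped (-0.10 ± 0.17, adjusted p = 0.685). The log2 ratio of PSME1 to PSME2, again of CPM, went from -0.19, -0.23 and -0.21 in the vehicle cultures to 1.28, 1.12 and 0.88. In hBMSC-CM it was 0.07, -0.03 and -0.54 with vehicle, 0.50, 0.51 and 0.18 with quizartinib, 0.18, 0.18 and 0.38 with everolimus and 0.94, 0.84 and 0.57 with the combo. Quizartinib cultures were above vehicle cultures in both media, with the combo cultures in hBMSC-CM above all quizartinib cultures there.

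The promoters of the 3 PA28 genes are shown because PSME1 and PSME2 lie side by side and encode partners, yet had different estimates. Each line gives the RefSeq sequence of GRCh38.p14 from 250 bases before to 50 bases after the start, 5′ to 3′ on the strand of the gene, with matches to the searched motifs in capitals. The windows are chr14:24135944-24136243 for PSME1, chr14:24146561-24146860 for PSME2 and chr17:42833147-42833446 for PSME3, and the strands are plus, minus and plus.
PSME1: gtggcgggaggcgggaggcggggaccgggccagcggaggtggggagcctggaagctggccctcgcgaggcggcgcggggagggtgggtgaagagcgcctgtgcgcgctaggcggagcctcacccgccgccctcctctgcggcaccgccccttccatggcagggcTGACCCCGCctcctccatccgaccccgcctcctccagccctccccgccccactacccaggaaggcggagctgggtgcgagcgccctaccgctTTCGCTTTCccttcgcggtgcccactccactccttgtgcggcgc
PSME2: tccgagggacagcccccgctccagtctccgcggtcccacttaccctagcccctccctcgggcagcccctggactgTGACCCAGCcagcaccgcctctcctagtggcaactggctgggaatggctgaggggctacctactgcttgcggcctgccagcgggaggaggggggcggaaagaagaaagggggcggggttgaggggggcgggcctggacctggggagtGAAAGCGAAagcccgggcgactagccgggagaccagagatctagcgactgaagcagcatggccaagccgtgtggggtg
PSME3: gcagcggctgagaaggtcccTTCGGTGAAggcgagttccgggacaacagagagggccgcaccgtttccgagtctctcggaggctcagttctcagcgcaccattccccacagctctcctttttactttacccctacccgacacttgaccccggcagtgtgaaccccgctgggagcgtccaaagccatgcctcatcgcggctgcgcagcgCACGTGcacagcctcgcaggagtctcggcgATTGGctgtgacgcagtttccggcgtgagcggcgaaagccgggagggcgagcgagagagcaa

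The capitals in PSME1 and PSME2 mark the core of an antioxidant response element (TGACNNNGC, bound by factors of the NFE2L family) and the core of an interferon-stimulated response element (TTCNNTTTC), and those in PSME3 mark a GAS element (TTCNNNGAA), an E-box (CACGTG) and an NF-Y box (CCAAT), each searched on both strands. PSME1 and PSME2 thus hold the same pair of matches. Over the 32 members with an entry in the table (PSMA7, PSMB1, PSMB6, PSMB7 and PSMD4 had none), each share is set against that in the 8943 promoters of tested genes and then that in all 27305 promoters. The antioxidant core was in 8 of 32 member promoters (25.0%, against 15.5% and 13.6%), the NF-Y box in 16 of 32 member promoters (50%, against 37.1% and 35.7%), the E-box in 2 of 32 member promoters (6.25%, against 10.5% and 7.43%), the ETS site CCGGAAG in 9 of 32 member promoters (28.1%, against 21.0% and 10.7%), the interferon core in 6 of 32 member promoters (18.8%, against 6.61% and 8.29%) and the GAS element in 4 of 32 member promoters (12.5%, against 6.14% and 7.88%). Matches to different motifs may overlap. The interferon core was in PSMA4, PSMB4, PSMB10, PSMC2, PSME1 and PSME2. A match describes letters in this window and was not tested against the changes in RNA.

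**Figure D3:**
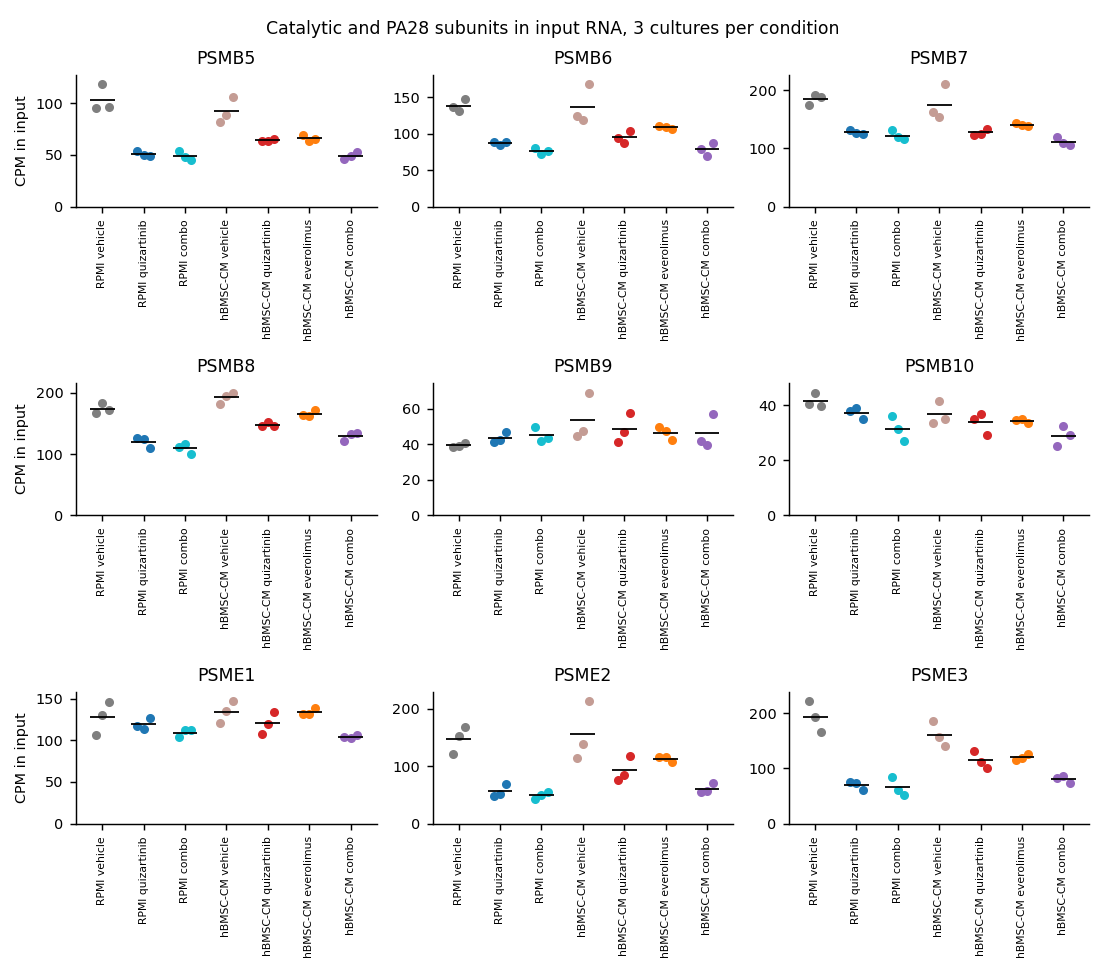
CPM in input of the catalytic, immunoproteasome and PA28 subunits, with 1 point per culture and a bar at the mean of 3 cultures in each of the 7 conditions, on linear axes from 0. PSMB5, PSME2 and PSME3 show vehicle cultures above the quizartinib cultures in RPMI with no overlap, whereas the points of PSME1 overlap.

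In hBMSC-CM the estimates with quizartinib had the same direction with a smaller median, and the count of calls depended on how the spread was modelled. All 37 estimates were negative with a median of -0.46 (all genes 0.01), and 8 members were called, all lower, beside 12.3% of all genes called and 6.84% called lower. With the replicate block and no everolimus libraries 27 were called lower, beside 34.9% of all genes. Without that block, leaving out the everolimus libraries alone left 1 member called, PSMC3. Single cultures mattered too: 2, 1 and 5 members were called without quizartinib replicate 1, 2 or 3, and 4, 7 and 3 without vehicle replicate 1, 2 or 3. In 25 of 37 members the quizartinib cultures lay below all vehicle cultures, beside 17.2% of all genes. Those called in the fit without a block were PSMA6, PSMA7, PSMB1, PSMB3, PSMC3, PSMC4, PSMD11 and PSME2.

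PSMC3 again had the smallest p, with 241, 304 and 384 CPM in the vehicle cultures in hBMSC-CM and 140.1, 170.5 and 196 CPM with quizartinib (-0.87 ± 0.17, adjusted p = 0.000668). Among those called, PSMA6 had the next largest fall (-0.83 ± 0.28, adjusted p = 0.0452), at a low and uncertain level. PSME2 had 115, 138 and 213 CPM and then 76.3, 84.2 and 118 CPM, groups that overlapped (-0.74 ± 0.23, adjusted p = 0.0279). PSMB3 was also called (-0.64 ± 0.21, adjusted p = 0.0381). The catalytic subunits had 82.3, 88.3 and 106 CPM and then 63.4, 63.2 and 65.4 CPM for PSMB5 (-0.53 ± 0.26, adjusted p = 0.183), with PSMB6 at -0.52 ± 0.21 and PSMB7 at -0.46 ± 0.17, and these 3 passed only with the block (PSMB5 -0.49 ± 0.12, adjusted p = 0.00185). PSME3 had 187, 156 and 141 CPM and then 131, 111 and 102 CPM (-0.50 ± 0.35, adjusted p = 0.392). PSMB8, which passed with the block as well, PSMB9, PSMB10 and PSME1 lay at -0.38, -0.14, -0.12 and -0.15.

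The difference between the media was tested directly. For 31 of 37 members the quizartinib estimate was less negative in hBMSC-CM than in RPMI, with a median difference of 0.23 (all genes -0.04), and 0 members were called by edgeR, limma or DESeq2, beside 1.96% of all genes by edgeR. At an unadjusted p under 0.05, 4 members passed, beside 9.99% of all genes. With the replicate block 4 members were called, all with a smaller fall in hBMSC-CM, beside 9.83% of all genes, so in both counts the share of members was near that of all genes. These were PSME3 (0.93 ± 0.18, adjusted p = 0.000601), PSMD12 (0.68 ± 0.22, adjusted p = 0.0408), PSME2 (0.63 ± 0.19, adjusted p = 0.0271) and PSMD11 (0.55 ± 0.15, adjusted p = 0.0104), named after their values were seen. All 11 non-ATPases had a positive difference, and the 3 immunoproteasome subunits lay from -0.29 to 0.16.

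Comparing the media under the same drug gave 0 members called without drug and 1 under quizartinib. Without drug the median was -0.01, 1.51% of all genes were called, and limma and DESeq2 called 0 members as well. The member passing an unadjusted p under 0.05, as 7.5% of all genes did, was PSMB9, with 38.3, 39.2 and 40.7 CPM in RPMI and 44.5, 47.6 and 69.0 CPM in hBMSC-CM (0.45 ± 0.19, adjusted p = 0.467). Every hBMSC-CM culture was above every RPMI culture, and PSMB8 (0.14 ± 0.22) and PSMB10 (-0.18 ± 0.20) had no call. Under quizartinib the median was 0.22 with 32 of 37 positive, and PSME2 was called higher in hBMSC-CM (0.72 ± 0.23, adjusted p = 0.0405), beside 8.16% of all genes. For 15 members all hBMSC-CM cultures lay above all RPMI cultures, beside 15.7% of all genes. The call of PSME2 was lost without the filter on low counts, in a fit of the groups compared alone, without the everolimus libraries, without quizartinib replicate 2 or 3 in hBMSC-CM (adjusted p = 0.0533 and 0.306) and without quizartinib replicate 1 or 2 in RPMI (adjusted p = 0.201 and 0.154). With the replicate block 7 members were called higher, a share below the 23.1% of all genes called in either direction. Besides PSME2 (0.66 ± 0.13, adjusted p = 0.000324) these were PSME3 (0.65 ± 0.13, adjusted p = 0.000213), PSMC4, PSMD1, PSMD7, PSMD11 and PSMD12. PSMB5, PSMB6 and PSMB7 stood at 0.34, 0.13 and 0.00, with no call in either fit.

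Adding everolimus to quizartinib called 0 members in either medium by edgeR, limma or DESeq2. In RPMI the median change was -0.08, no member passed an unadjusted p under 0.05 (all genes 1.33%), and 0.00773% of all genes were called. In hBMSC-CM the median was -0.25 (all genes 0.00), 34 of 37 estimates were negative, 4 passed an unadjusted p under 0.05 (all genes 6.1%) and 0.24% of all genes were called. In 19 members all combo cultures lay below all quizartinib cultures, beside 8.9% of all genes. Under the replicate block PSME2 (-0.56 ± 0.13, adjusted p = 0.00907), PSMC4 (-0.47 ± 0.11, adjusted p = 0.0102) and PSME3 (-0.47 ± 0.13, adjusted p = 0.0259) were called lower, beside 4.68% of all genes. In CPM, PSME2 had 76.3, 84.2 and 118 with quizartinib and 54.5, 57.5 and 71.3 with the combo in hBMSC-CM, and PSME3 had 131, 111 and 102 and then 82.2, 87.2 and 73.0. PSMB5 had 63.4, 63.2 and 65.4 CPM and then 45.9, 49.3 and 53.1 CPM, with no overlap and no call (-0.37 ± 0.26, adjusted p = 1). The combo cultures in hBMSC-CM had a summed member level of 3255, 3123 and 3345 CPM, beside 3342, 3133 and 3088 CPM for the combo in RPMI.

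Everolimus alone in hBMSC-CM gave negative estimates for all 37 members with a median of -0.35 (all genes -0.02), and 0 were called by edgeR or limma, beside 0.41% of all genes by edgeR. DESeq2 called 1, PSMD11 (adjusted p = 0.00871), and 7 passed an unadjusted p under 0.05, beside 8.68% of all genes. In 21 of 37 members all everolimus cultures lay below all vehicle cultures, beside 13.5% of all genes. The everolimus replicates were tighter than those of other conditions, and their part in this count was not tested. Whether they were separate cultures is not known, which limits this count and the p-values given here. PSMD11 came closest, with 110.2, 86.3 and 80.0 CPM with vehicle and 61.3, 60.0 and 59.8 CPM with everolimus (-0.61 ± 0.16, adjusted p = 0.0784). PSMB5 had 69.5, 63.9 and 65.8 CPM under everolimus (-0.47 ± 0.26, adjusted p = 0.638), PSME2 116, 116 and 107 (-0.46 ± 0.23, adjusted p = 0.568) and PSME1 131, 132 and 139 (0.00 ± 0.17, adjusted p = 1). The mean of the everolimus cultures differed from each single vehicle culture by a median over members of -0.30, -0.29 and -0.47. Against these vehicle cultures 28, 35 and 35 of 37 members were lower. The direction of the median thus did not rest on 1 vehicle culture, while that of some members did depend on the culture.

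Among 29 genes of proteasome assembly and regulation, a list of chaperones, bound deubiquitinases, shuttle factors and transcriptional regulators, 12 were called lower and 0 higher with quizartinib in RPMI, where 18% of all genes were called lower and 16.6% higher. PSMG1, an assembly chaperone of the α ring, fell most (-1.92 ± 0.20, adjusted p = 2.56e-09), followed by UCHL5, a deubiquitinase of the regulatory particle (-1.61 ± 0.20, adjusted p = 1.05e-07). In hBMSC-CM the same pair was called lower, beside 6.84% of all genes (-1.29 ± 0.20, adjusted p = 4.27e-05, and -0.75 ± 0.20, adjusted p = 0.0107). Both stood higher in hBMSC-CM than in RPMI under quizartinib, beside 6.11% of all genes (0.61 ± 0.20, adjusted p = 0.0469, and 0.90 ± 0.20, adjusted p = 0.00242). PSMG1 was also the member of this list called lower with everolimus alone (-0.92 ± 0.20, adjusted p = 0.0213), beside 0.185% of all genes. Of 13 tested genes of interferon response and class I presentation, 5 were called higher and 1 lower with quizartinib in RPMI, beside the same 16.6% and 18% of all genes. STAT2, which carries interferon signals to the nucleus, rose most (1.90 ± 0.25, adjusted p = 3.16e-07), then HLA-E, a class I molecule (1.25 ± 0.17, adjusted p = 2.35e-07), while TAP2, a subunit of the peptide transporter, was lower (-0.80 ± 0.24, adjusted p = 0.00829). In hBMSC-CM 2 were called higher, beside 5.46% of all genes, STAT2 (1.31 ± 0.25, adjusted p = 0.000641) and HLA-E (0.78 ± 0.16, adjusted p = 0.00178). NLRC5, an activator of class I genes, was higher in hBMSC-CM than in RPMI under quizartinib (0.82 ± 0.21, adjusted p = 0.009), beside the same 6.11% of all genes. The other comparisons of input RNA called 0 genes of these lists.

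Heavy polysomes held a larger share of proteasome messages than input RNA, with most β ring subunits above input and PSMD1, PSMD12, PSMC6 and PSMA4 below it. The members took 0.353% to 0.649% of input counts and 0.611% to 1.03% of polysome counts. In the vehicle cultures 29 of 37 members were called in RPMI (22 higher in polysomes and 7 lower) and 29 in hBMSC-CM (22 higher and 7 lower). Most genes differ between these fractions: 65.4% and 63.6% of all genes were called, 31.5% and 29.6% of all genes higher. The shares of all genes called lower were 33.9% and 34.0%, so calls below input were less frequent among the members than among all genes. With the replicate block and without the everolimus libraries 33 members were called in each medium (23 higher and 10 lower), beside 72.4% and 72.3% of all genes. In this comparison the block, set within each fraction, does not cancel. The blocked estimates are thus those at replicate 1 and not the mean of the replicates. That fit added PSMA3 and PSMD6 (both lower) in both media, PSMC1 (lower) and PSME3 (higher) in RPMI, and PSMC2 (lower) and PSMC5 (higher) in hBMSC-CM. PSMA3 had polysome minus input values of -0.84, -0.06 and 0.13 in RPMI vehicle and -0.83, -0.10 and 0.06 in hBMSC-CM vehicle. The median of the members was 1.04 in RPMI and 1.14 in hBMSC-CM, and that of all genes -0.06 and -0.11. With library size as the only scaling the median of all genes was -0.61 and -0.63, and the calls of members were 19 higher and 11 lower and 20 higher and 10 lower, so directions here are relative to the scaling. These log2 differences compare shares of a library and do not count ribosomes on a message.

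All 7 β ring and all 3 immunoproteasome subunits had positive differences in both media, and PSMB2 alone among them did not pass. Its estimate in hBMSC-CM was 0.52, and -0.15 at replicate 1 in the blocked fit, with no call in either. In those vehicle cultures PSMB2 had 198, 187 and 194 CPM in input and 179, 466 and 183 CPM in polysomes. PSMB8 was highest in RPMI, with polysome minus input values of 1.84, 2.18 and 1.46 in the 3 vehicle cultures (1.86 ± 0.22), and PSMB6 (1.79 ± 0.22), PSMB10 (1.75 ± 0.21), PSMB3 (1.65 ± 0.21), PSMB5 (1.64 ± 0.26), PSMB9 (1.62 ± 0.19) and PSMB7 (1.44 ± 0.17) followed. Immunoproteasome and constitutive catalytic subunits spanned overlapping ranges. PSME1 (1.58 ± 0.17) and PSME2 (1.22 ± 0.23) were called in both media. PSME3 passed in hBMSC-CM (0.86 ± 0.35) and just missed in RPMI (0.77 ± 0.35, adjusted p = 0.0538). In the blocked fit, which gives the difference at replicate 1, PSME3 passed in both (0.65 ± 0.15, adjusted p = 0.000202 in RPMI). Without a block the call in hBMSC-CM was lost without any 1 of the hBMSC-CM vehicle replicates (adjusted p = 0.0693, 0.245 and 0.0552). The non-ATPases split. PSMD3 had 2.05, 2.01 and 1.41 in the RPMI vehicle cultures (1.86 ± 0.21), with PSMD8 (1.72 ± 0.18) and PSMD2 (1.64 ± 0.25) beside it, whereas PSMD1 had -1.82, -1.80 and -1.84 (-1.82 ± 0.30), PSMD12 -1.06 ± 0.21, PSMD14 -0.90 ± 0.32 and PSMD7 -0.62 ± 0.19. PSMD1 and PSMD3 differed in sign in every one of the 6 vehicle cultures. PSMC6 (-0.95 ± 0.27), PSMA4 (-0.78 ± 0.22) and PSMC2 (-0.52 ± 0.23) were the other members lower in polysomes in RPMI. In hBMSC-CM PSMA1 (-0.91 ± 0.28) was called. PSMC2 (-0.35 ± 0.23) passed there only in the blocked fit, at replicate 1 (-0.41 ± 0.15, adjusted p = 0.0175). Leaving out the everolimus libraries cost the calls of PSMC2 in RPMI and PSMD14 in hBMSC-CM (adjusted p = 0.163 and 0.0962). The call of PSMA1 was lost without vehicle replicate 3 in hBMSC-CM (adjusted p = 0.195), and that of PSMD14 there without replicate 1 or 2 (0.166 and 0.172). In RPMI the calls of PSMC6, PSMA4, PSMD7, PSMD14 and PSMC2 were lost without vehicle replicate 1 (adjusted p = 0.0588, 0.0746, 0.0918, 0.129 and 0.276), and those of PSMD14 and PSMC2 also without replicate 2 (0.0535 and 0.143).

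**Figure D4:**
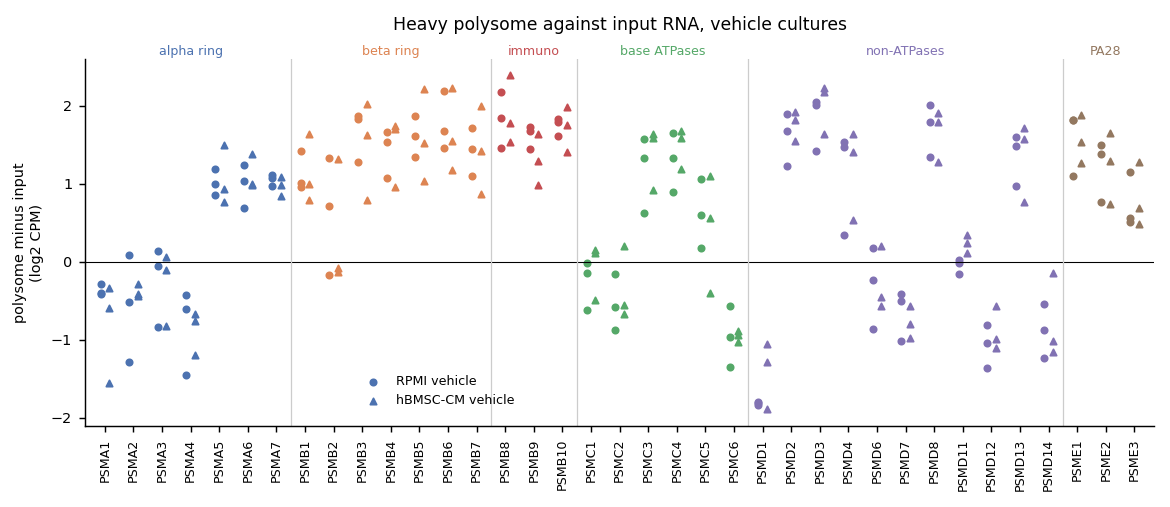
Polysome minus input (log2 CPM) of each member in the 6 vehicle cultures, circles for RPMI and triangles for hBMSC-CM, by subunit class. The β ring and immunoproteasome points lie above 0 apart from PSMB2, while PSMD1, PSMD12, PSMC6 and PSMA4 lie below 0 in every culture.

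This division went along with base composition. Across the 37 members the polysome minus input value in RPMI vehicle rose with the share of G or C in the coding sequence (Spearman's correlation 0.88, Pearson's r 0.83, and Spearman's correlation 0.81 to 0.87 in the single cultures). Genes are not independent replicates, and all points share the same libraries. The relation was not particular to the proteasome, since over 10810 tested protein-coding genes Spearman's correlation was 0.72. PSMD1, PSMD12, PSMC6 and PSMA4 have 43.0%, 40.6%, 41.0% and 40.1% G or C in the coding sequence, and PSMB10, PSMD8, PSMD3 and PSMB8 have 63.1%, 59.4%, 56.9% and 55.2%. Counted at codon position 3, the 23 members with at least 50% G or C had a median of 1.42 and the 14 below that -0.45. Spearman's correlation was -0.57 for the span of the gene and -0.23 for coding length. The part of base composition in the result was not tested.

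**Figure D5:**
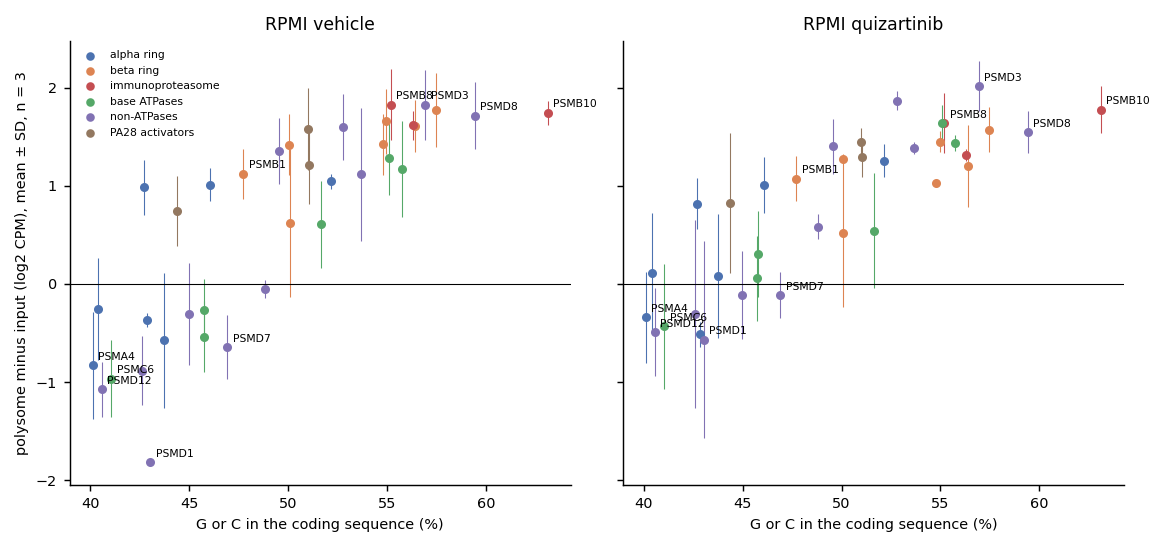
Polysome minus input (log2 CPM, mean ± SD of 3 cultures) of each member against the share of G or C in its coding sequence, for RPMI vehicle (left) and RPMI quizartinib (right), coloured by subunit class. Spearman's correlation is 0.88 on the left and 0.86 on the right, and PSMD1 lies lowest on the left.

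In the fit without a block no member was called for a change in polysomes beyond its change in input, with 0 of 37 called by edgeR, limma or DESeq2 in each of the 8 comparisons. Of all genes 1.55% were called with quizartinib in RPMI and 0% in each of the other 7 comparisons, so the absence of calls is not particular to the proteasome. At an unadjusted p under 0.05, 4 members passed with quizartinib in RPMI, below the 15.6% of all genes. With quizartinib in hBMSC-CM 1 passed and with the combo in hBMSC-CM 1, beside 2.23% and 2.11% of all genes (PSMC6 in both, at 0.85 and -0.88), and 0 in the other 5. PSMD1 came closest with quizartinib in RPMI (1.41 ± 0.41, adjusted p = 0.0725). Its polysome minus input values there were -0.91, -1.35 and 0.56, against -1.82, -1.80 and -1.84 with vehicle, so that all quizartinib cultures were higher and the third stood far above the others. It was called without quizartinib replicate 2 and without the filter on low counts, each time as the 1 member called. With the replicate block 4 members were called in this comparison, a share below the 14% of all genes, and they were named after their values were seen. PSMD1 (1.07 ± 0.27, adjusted p = 0.00605) and PSMD11 (0.45 ± 0.15, adjusted p = 0.0367) rose in polysomes relative to input, and PSMB5 (-0.58 ± 0.17, adjusted p = 0.0195) and PSMB4 (-0.59 ± 0.19, adjusted p = 0.0381) fell. In the single cultures PSMB5 had 1.61, 1.87 and 1.34 with vehicle and 1.11, 1.65 and 0.83 with quizartinib, which overlap, and PSMD11 had -0.16, -0.02 and 0.02 and then 0.45, 0.61 and 0.69, which do not.

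By class, the estimates with quizartinib in RPMI were negative for all 7 β ring subunits (median -0.20) and positive for 10 of 11 non-ATPases (median 0.25) and 5 of 6 ATPases (median 0.42), where the median of all genes was 0.15. Base composition moved with this as well, with a Spearman's correlation of -0.57 over the members and -0.38 over the protein-coding genes, and its part in the result was not tested. The input change with quizartinib in RPMI had a Spearman's correlation of 0.10 with it over the members. The immunoproteasome subunits lay at -0.20, -0.31 and 0.04 (PSMB8, PSMB9 and PSMB10) with quizartinib in RPMI and at -0.07, 0.23 and 0.09 in hBMSC-CM. PSME1, PSME2 and PSME3 lay at -0.13, 0.06 and 0.21 in RPMI. The fall of the members in input with quizartinib was met in polysome libraries too, where the summed level was 11878, 13779 and 9955 CPM with vehicle and 7432, 8153 and 6967 CPM with quizartinib in RPMI.

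Over the 7 conditions the median polysome minus input value of the members lay between 0.97 and 1.24 (mean of 3 cultures), with SDs of 0.04 to 0.38. The immunoproteasome medians ran from 1.54 to 1.82 and the β ring medians from 1.13 to 1.47. No test was run on these medians. The non-ATPases stood at 0.00 in RPMI vehicle, 0.62 with quizartinib and 0.80 with the combo in RPMI. In hBMSC-CM they stood at 0.23 with vehicle, 0.29 with quizartinib, 0.49 with everolimus and 0.56 with the combo. The median of all genes was -0.09 in RPMI vehicle and 0.02 in RPMI quizartinib. The α ring medians ran from -0.11 to 0.45, those of the ATPases from 0.17 to 0.53 and those of the PA28 activators from 1.04 to 1.51. In the everolimus cultures PSMB5 had 1.13, 1.35 and 1.43 and PSMD1 -1.40, -1.36 and -1.89. In the combo cultures in hBMSC-CM PSMB5 had 0.95, 2.02 and 1.03, and the second culture also stood highest for PSMB6 (1.36, 2.48 and 1.46), PSMB8 (1.48, 2.27 and 1.71) and PSME2 (1.21, 1.88 and 1.43).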

How the data were processed

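RNA-seq libraries of input and heavy polysome RNA were made from MOLM-13 cells in 7 conditions with 3 replicates each. The authors aligned reads to hg38 with STAR 2.6.0a, and the deposited values are raw counts per gene for 42 poly(A)-selected libraries (the strand setting is not given in the sources used here). Rows with the same gene name were summed, giving 57353 names, and the 12939 genes that averaged at least 1 count and 1 CPM were kept. No column was left out.

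Counts were tested with edgeR 4.0.16 (R 4.3.3) in 1 quasi-likelihood fit of 14 group means with TMM factors. p-values were adjusted over all genes by the method of Benjamini and Hochberg and called under 0.05, and values after ± in a log2 change are standard errors. In polysome comparisons the change in input is subtracted from that in polysomes. This fit does not pair the input and polysome libraries of the same culture. Alternatives were limma 3.58.1 (the study used limma, version not given in the sources used here), DESeq2 1.42.0, other scalings, no filter, a replicate block and leaving out single cultures. For polysome comparisons a fit with each culture as a block was run as well. The replicate block was set within each fraction. It cancels in all comparisons except polysomes against input, where the blocked estimate is that at replicate 1. Of these steps only the edgeR test was first run on simulated counts, for some of the comparisons.

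Replicate numbers come from the labels. Same-numbered libraries of 6 conditions deviated together (correlations 0.28 to 0.66 in input and 0.15 to 0.72 in polysomes over 15 pairs of conditions), those with everolimus did not, and so blocked values leave out the everolimus libraries, an alternative chosen after seeing the data.

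The members and lists were chosen with earlier results of these data known. The catalytic, immunoproteasome and PA28 subunits were set to be named in each comparison, but some comparisons give only part of them or none. Besides these the largest called changes were named, up to 4 each way, or 8 where over 20 members passed. Some members without a call are named as well. Promoters are from RefSeq (GRCh38.p14), and gene models from GENCODE release 44 where the authors used Ensembl release 96. Depth was 19.4 to 38.8 M counts per library, and 3 replicates a group limit the precision.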

Additional observations from a re-analysis of the deposited data

Results flagged for a closer look

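For 4 members the change with quizartinib differed between the media by a direct test of the difference, in the edgeR fit with the replicate block and without the everolimus libraries. That fit called 9.83% of all genes for the same difference, so the 4 of 37 are near the background. PSME3, the nuclear PA28 activator, fell less in hBMSC-CM by a log2 difference of 0.93, PSMD12 by 0.68, PSME2 by 0.63 and PSMD11 by 0.55. Without the block none of these 4 differences was called.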

How the results depend on the processing

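Counts of members called under each alternative follow, by comparison. Those in input RNA for quizartinib in RPMI, and those of polysomes against input, stayed within 1.5 times the reported count in every alternative run. Quizartinib in hBMSC-CM, with 8 members called, gave 3 with RLE factors, 3 with library size only, 2 without a filter, 4 with only the groups compared, 24 with the replicate block, and 1 to 7 when single cultures were left out. Of 2 alternatives chosen after seeing the data, leaving out the everolimus libraries gave 1, and doing so with the block 27. The media under quizartinib, with 1 called, gave 2 with library size only, 0 without a filter, 3 with only the groups compared, 7 with the block, 0 to 1 without single cultures, 0 without the everolimus libraries and 7 with the block and without them. From 0 called, the block gave 2 for the combo in hBMSC-CM (3 without the everolimus libraries), 3 for everolimus, whose numbers do not pair, 2 for the media difference (4 without those libraries) and 3 for polysomes relative to input with quizartinib in RPMI (4 without them). There, no filter gave 1 and single cultures 0 to 1. DESeq2 gave 1 for everolimus, and only the groups compared gave 2 for the media difference. The cause of these shifts was not tested. No member called in the reported fit changed direction in that comparison: 1128 values kept their call and 121 lost it. Members without a call were not part of this check, and PSMB2 in polysomes against input in hBMSC-CM did turn in the blocked fit. The block, with the pairing it rests on, changed no other call count by over 1.5 times. For polysomes against input the blocked count refers to replicate 1 and does not check the mean of the replicates. Calls in hBMSC-CM are thus less firm than in RPMI, and members at low counts such as PSMA2 and PSMA6 are limited by depth and by overlapping genes.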
